A study of Rattus norvegicus with 9 samples.

Results

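Transcripts of 7 aquaporins and 2 vasopressin receptors were followed in rat kidney: Aqp1 (gene ID 25240), Aqp2 (25386), Aqp3 (65133), Aqp4 (25293), Aqp6 (29170), Aqp7 (29171), Aqp11 (286758), Avpr2 (25108) and Avpr1a (25107). They were taken by gene symbol, 9 of the 19367 genes measured, and all 9 were among the 13127 genes expressed well enough to be tested. RNA sequencing covered 9 kidney libraries in 3 groups of 3. The first group was the normotensive Wistar-Kyoto strain (WKY), the second the spontaneously hypertensive rat (SHR), an inbred strain with inherited high blood pressure, and the third SHR given dapagliflozin, a blocker of the sodium-glucose cotransporter SGLT2. Rats were 3 months old at the start. Treatment lasted 8 weeks, with an oral dose of dapagliflozin of 10 mg/kg a day. WKY and untreated SHR were given distilled water in the protocol text, while another label field gives saline. Because every library has Wistar-Kyoto in its strain field, groups were read from the sample titles. The labels name no engineered allele in any group.

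Aquaporins are membrane channels that let water, and in some cases glycerol, cross cells. Aqp1 makes the proximal tubule and the thin descending limb water permeable. In the collecting duct, vasopressin binds the receptor Avpr2 on the basolateral side of principal cells, raises cyclic AMP and brings Aqp2 into the apical membrane, and water leaves the cell through Aqp3 and Aqp4 on the opposite side. Avpr1a, the receptor coupled to Gq and calcium, is found in vessels and in intercalated and other cells of the distal nephron.

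Values were FPKM, the fragments per kilobase of transcript scaled to the mapped reads of each library, so levels of different genes can be set side by side. Differences between groups are log2 changes of FPKM + 1 from limma with Benjamini-Hochberg adjustment over the 13127 genes, with calls made where the adjusted p was under 0.05. The labels do not tie libraries to animals, so p-values measure the spread between these libraries, which may be technical. The FPKM of a library summed to 563643 to 589838, and how many reads lie behind it is unknown. Libraries of the same group correlated at 0.969 to 0.989 across genes and libraries of different groups at 0.922 to 0.987. In whole kidney RNA, fewer cells of a type and less RNA per cell cannot be told apart.

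Each list of kidney tubule markers had expressed members in every library, although single markers were near 0. Slc14a2 of the inner medulla was at most 0.14 FPKM, while the 6 inner medulla markers summed to 138 to 394. Slc22a13 of the late proximal tubule was 0 to 0.35 FPKM in treated SHR. Pvalb of the distal convoluted tubule was listed at 0 in 8 libraries. The 6 principal cell markers (Scnn1b, Scnn1g, Hsd11b2, Fxyd4, Gata3 and Elf5) summed to 432 to 796 FPKM in WKY, 702 to 1020 in SHR and 1222 to 2271 in treated SHR. The 9 intercalated cell markers summed to 747 to 1036, 1166 to 1773 and 1645 to 2835 FPKM in the same order. The 6 late proximal tubule markers summed to 1897 to 4335 FPKM in WKY, 1628 to 2164 in SHR and 622 to 2608 in treated SHR, and the 7 early proximal markers to 1735 to 2461, 2138 to 2525 and 1111 to 1961. In treated SHR against WKY, 6 of 6 principal and 9 of 9 intercalated markers rose and 2 of 7 early and 3 of 6 late proximal markers fell. In SHR against WKY, 1 of 6 principal markers rose, and 0 intercalated or proximal markers were called. In treated against untreated SHR 0 markers of these lists were called. The part of these marker levels in the members' values was tested only through the principal and proximal marker covariates given with the results.

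Promoter windows of 300 bases, from 250 before to 50 after an annotated start, were available from RefSeq on the GRCr8 build for 8 of the 9 members. Aqp7 was not among them. The windows of Aqp2, Aqp3, Avpr2 and Avpr1a are shown, 5′ to 3′ along the gene, because these were the members with WKY lowest, SHR between and treated SHR highest without overlapping libraries. Capitals mark matches on either strand to 4 motifs. The first is CGTCA, the core of the cyclic AMP response element. The second is AGATAA, which is bound by GATA transcription factors. The third, TATAAA, is the usual spelling of the TATA box. The last is the E-box CACGTG.
Aqp2 (chr7:132590036-132590335, plus strand): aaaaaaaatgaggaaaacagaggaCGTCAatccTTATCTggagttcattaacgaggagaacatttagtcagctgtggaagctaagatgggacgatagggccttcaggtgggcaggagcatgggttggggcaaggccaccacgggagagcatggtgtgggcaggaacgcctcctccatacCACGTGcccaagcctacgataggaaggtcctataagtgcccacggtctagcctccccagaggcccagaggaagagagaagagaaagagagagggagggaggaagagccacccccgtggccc
Aqp3 (chr5:61040634-61040933, minus strand): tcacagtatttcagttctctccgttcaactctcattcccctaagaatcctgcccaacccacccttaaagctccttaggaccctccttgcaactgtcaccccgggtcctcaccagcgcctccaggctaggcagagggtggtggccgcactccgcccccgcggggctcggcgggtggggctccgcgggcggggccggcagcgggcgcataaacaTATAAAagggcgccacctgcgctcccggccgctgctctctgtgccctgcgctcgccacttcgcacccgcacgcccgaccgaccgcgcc
Avpr2 (chrX:156784889-156785188, plus strand): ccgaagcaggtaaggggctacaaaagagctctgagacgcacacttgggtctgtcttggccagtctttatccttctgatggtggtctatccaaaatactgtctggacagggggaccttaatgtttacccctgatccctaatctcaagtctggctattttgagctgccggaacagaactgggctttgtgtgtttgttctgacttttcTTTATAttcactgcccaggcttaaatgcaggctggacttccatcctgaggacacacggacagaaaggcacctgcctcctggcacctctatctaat
Avpr1a (chr7:59999493-59999792, plus strand): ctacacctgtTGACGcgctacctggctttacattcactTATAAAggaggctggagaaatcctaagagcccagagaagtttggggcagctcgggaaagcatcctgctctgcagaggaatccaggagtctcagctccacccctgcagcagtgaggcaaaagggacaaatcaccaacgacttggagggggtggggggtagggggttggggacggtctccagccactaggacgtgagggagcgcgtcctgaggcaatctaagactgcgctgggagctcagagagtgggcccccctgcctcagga

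In the Aqp2 window the cyclic AMP core began 226 bases before the start, followed 217 bases before it by a GATA match read on the opposite strand, and CACGTG began 71 bases before it. CGTCA was also present on the opposite strand in the Avpr1a window, 240 bases before the start, and it occurs in 21.2% of 33469 windows of this length. AGATAA occurred in the Aqp2 window alone among 8 members and in 11.6% of all windows. TATAAA was found for Aqp1, Aqp3, Avpr2 and Avpr1a, 4 of 8 members, against 14.2% of all windows. In Aqp3 it lay 38 bases before the start and in Aqp1 30 bases, in Avpr2 45 bases on the opposite strand, and in Avpr1a 212 bases. CACGTG was shared by Aqp2 and Aqp6 (6.42% of windows), and the full palindrome TGACGTCA was found in 0 of 8 members and 1.83% of windows. These matches describe letters only. On the same build Aqp2, Aqp5 and Aqp6 are neighbours, as are Aqp3 and Aqp7, and no annotated gene overlaps any of the 9 members.

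The balance between the channels differed between groups. By mean FPKM, the order in WKY was Aqp1, Aqp2, Aqp6, Aqp7, Aqp3, Aqp11, Avpr2, Aqp4 and Avpr1a, from 686 ± 183 for Aqp1 (mean ± SD, n = 3, as throughout) to 3.65 ± 0.296 for Avpr1a. Of the neighbours in that order, only Avpr2 and Aqp4 had overlapping libraries. In untreated SHR Aqp2 stood first at 490 ± 37.2 FPKM, with Aqp1 at 459 ± 28.4 and overlapping libraries, followed by Aqp6, Aqp3, Aqp7, Avpr2, Aqp11, Aqp4 and Avpr1a, none of which overlapped its neighbour. In treated SHR Aqp2, at 890 ± 271, lay above Aqp1, at 347 ± 180, in every library. The treated libraries of Aqp1, Aqp6 and Aqp3 overlapped one another, as did those of Avpr2, Aqp7 and Aqp4, those of Aqp4 and Aqp11, and those of Aqp11 and Avpr1a. The FPKM ratio of Aqp1 to Aqp2 was 4.42, 1.26 and 2.61 in WKY libraries 1 to 3, 0.957, 0.925 and 0.933 in SHR, and 0.87, 0.347 and 0.164 in treated SHR. It was thus above 1 in each WKY library and below 1 in every library of SHR, treated or not. Aqp1 and Aqp2 lie in different cell types, whose marker sums also differed between libraries. The part of those cell types in this ratio was not tested.

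**Figure D1:**
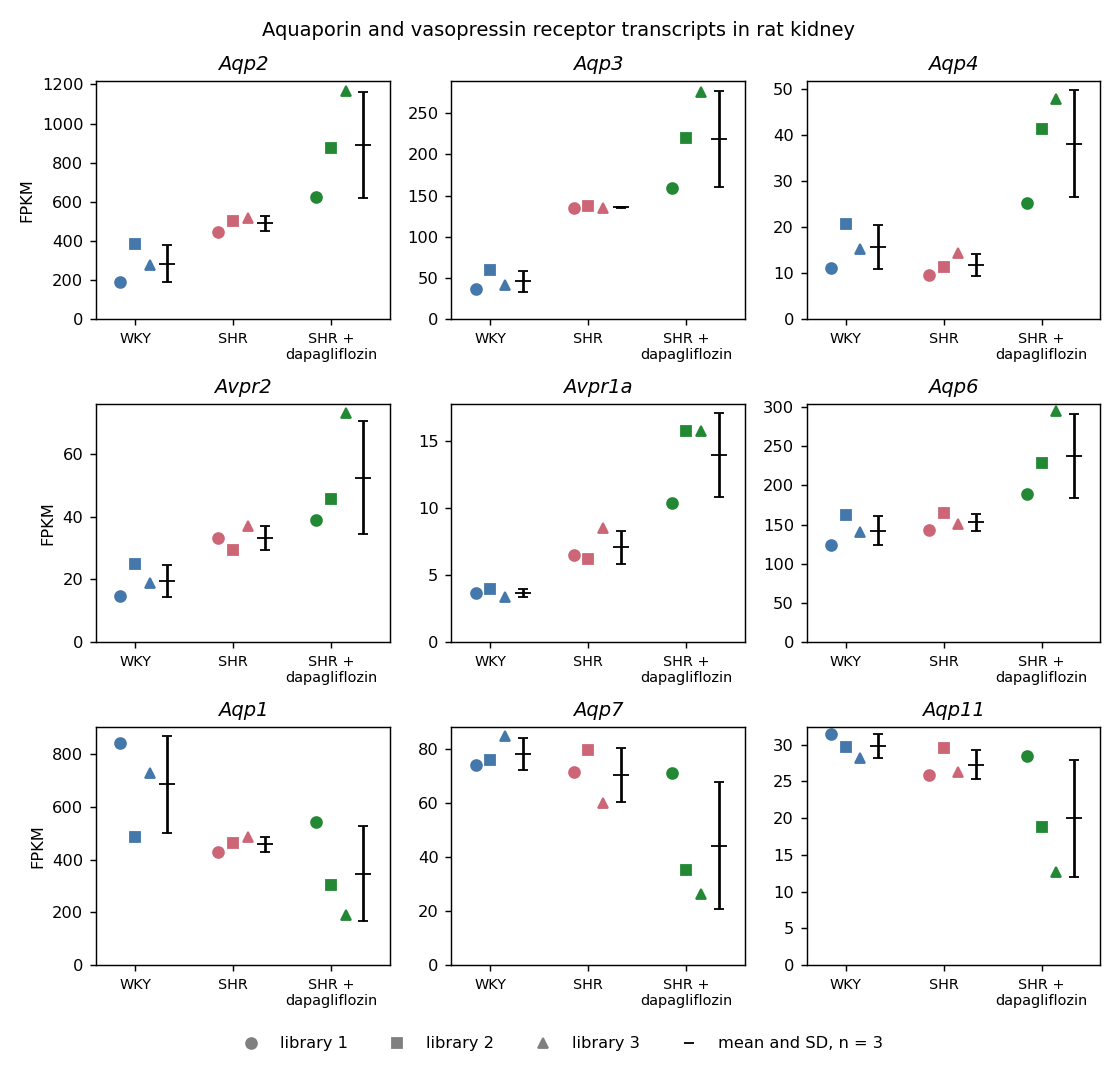
FPKM of each member (vertical axes, starting at 0) in the 9 libraries, by group on the horizontal axes; symbols are libraries 1 to 3 and bars give the mean and SD of 3. Aqp2, Aqp3, Avpr2 and Avpr1a are lowest in WKY and highest in treated SHR, while Aqp1, Aqp7 and Aqp11 are lowest in treated libraries 2 and 3.

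The comparison of untreated SHR with WKY shows how the hypertensive strain differs from its normotensive control. Collecting duct Aqp3 and the receptor gene Avpr1a rose, Aqp2 and Avpr2 were higher in every SHR library without passing the test, and Aqp4, the other basolateral channel, had a lower mean with overlapping libraries. Of 9 members, 2 were called, both higher, where 2.96% of all genes were called. Libraries did not overlap for 4 members, all higher in SHR (20.3% of all genes), and for 0 members in the lower direction (8.11% of all genes). The median log2 change was 0.11 over the members and 0.07 over all genes.

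Among the channels of the principal cell, Aqp2, the vasopressin-regulated apical channel, measured 191, 385 and 279 FPKM in WKY libraries 1 to 3 and 448, 502 and 519 in SHR. Every SHR library was above every WKY library, and the log2 change of 0.83 (SE 0.28) did not pass (adjusted p = 0.159). Aqp3, a basolateral channel for water and glycerol, measured 36.6, 59.8 and 40.95 FPKM in WKY and 135, 137 and 135 in SHR. The SHR libraries lay within a narrow band of 136 ± 1.03, and the lowest was above the highest WKY library. The log2 change was 1.58 (SE 0.22, 95% interval 1.09 to 2.07, adjusted p = 0.006), and it passed whichever library was left out (highest adjusted p = 0.0377). Aqp4, a second basolateral water channel, measured 11.2, 20.7 and 15.25 FPKM in WKY and 9.51, 11.3 and 14.4 in SHR. The groups overlapped, and the log2 change of -0.37 (95% interval -0.99 to 0.25) did not pass (adjusted p = 0.472).

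With the mean level of the 6 principal cell markers as a covariate, 0 members were called, where 0.663% of all genes were. The log2 change of Aqp3 was then 0.97 (adjusted p = 0.149), that of Aqp2 0.03 (adjusted p = 0.989) and that of Aqp4 -1.21 (adjusted p = 0.0764). Each level was also expressed library by library as the log2 difference from the mean of those markers. This uses the same markers and libraries as the covariate, so it is not independent of that fit. Aqp3 stood 0.52, 0.64 and 0.52 above the marker mean in WKY libraries 1 to 3, and 1.52, 1.59 and 1.05 above it in SHR, a shift of 0.83 without overlap. Aqp4 gave -1.11, -0.85 and -0.85 in WKY against -2.18, -1.89 and -2.1 in SHR, a shift of -1.12 without overlap. For Aqp2 it averaged 3.14 ± 0.24 and 3.23 ± 0.24, with overlap. Each of the shifts without overlap had an exact permutation p of 0.1, two-sided, the smallest that 3 against 3 libraries can give, and an adjusted p of 0.218 over 24 such comparisons.

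Ratios between channels of the same cell showed the unequal differences directly. WKY libraries had log2 ratios of Aqp3 to Aqp2 of -2.35, -2.66 and -2.74, and SHR libraries -1.72, -1.87 and -1.94, higher by 0.74. The FPKM ratio of Aqp3 to Aqp4 went from 3.26, 2.89 and 2.69 in WKY to 14.2, 12.1 and 9.39 in SHR. On the log2 scale Aqp4 to Aqp3 averaged -1.49 ± 0.13 in WKY and -3.44 ± 0.28 in SHR, a difference of -1.95. Neither ratio overlapped between the groups (exact permutation p = 0.1, two-sided, adjusted p = 0.218). The ratio of Aqp2 to the vasopressin receptor gene Avpr2 was 3.78 ± 0.14 and 3.84 ± 0.18 on the log2 scale, with overlap (exact permutation p = 0.7).

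The receptors followed. Avpr2, which couples vasopressin to cyclic AMP, measured 14.6, 24.8 and 19.0 FPKM in WKY and 33.2, 29.5 and 37.0 in SHR. The libraries did not overlap, and the log2 change of 0.77 (SE 0.24) did not pass (adjusted p = 0.149). Relative to the principal cell markers Avpr2 was -0.63 ± 0.11 and -0.62 ± 0.16, with overlap. Avpr1a measured 3.63, 3.96 and 3.37 FPKM in WKY and 6.49, 6.18 and 8.50 in SHR. Its log2 change was 0.78 (SE 0.17, adjusted p = 0.0475), a call close to the threshold. It was lost without WKY library 1 (adjusted p = 0.144), 2 (0.0674) or 3 (0.183), without SHR library 1 (0.12), 2 (0.092) or 3 (0.161), without treated library 2 (0.0649), with no filter on low values (0.0722), with no trend (0.0527) and with the principal cell covariate (0.63). Smooth muscle markers, another possible source of Avpr1a, summed to 63.1 to 85.2 FPKM in WKY and 90.4 to 111 in SHR, and 0 of 6 were called; their part in the result was not tested.

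Aqp6, a channel of intracellular vesicles in acid-secreting intercalated cells, measured 125, 162 and 141 FPKM in WKY and 143, 164 and 151 in SHR. The groups overlapped (log2 change 0.11, 95% interval -0.26 to 0.47, adjusted p = 0.732), while the 9 intercalated cell markers had a median log2 change of 0.74 with 0 called. The channels of the proximal tubule also overlapped. Aqp1 measured 843, 485 and 729.9 FPKM in WKY and 429, 464 and 485 in SHR (log2 change -0.54, 95% interval -1.32 to 0.24, adjusted p = 0.406). Aqp7, which carries glycerol out of the late proximal filtrate, measured 78.3 ± 5.87 and 70.5 ± 9.95 FPKM (log2 change -0.16, adjusted p = 0.793). Aqp11, a channel of the endoplasmic reticulum in proximal cells, measured 29.8 ± 1.64 and 27.2 ± 1.97 FPKM (log2 change -0.13, adjusted p = 0.783). The WKY libraries with the most Aqp1, 1 and 3, also had the largest late proximal marker sums, 4335 and 3511 FPKM against 1897 in WKY library 2. Of that list, Slc7a9 alone was highest in WKY library 2 (65.2, 66.1 and 57.3 FPKM in libraries 1 to 3). The early proximal marker sum was also highest there, at 2398, 2461 and 1735 FPKM. Red blood cell and endothelial markers, other possible sources of Aqp1, summed to 2629 to 5967 and 113 to 289 FPKM in WKY and to 3594 to 5738 and 229 to 345 in SHR. Of 5 tested red blood cell markers, 1 was called, Hba-a3, lower in SHR (0.243 ± 0.245 against 32 ± 11.5 FPKM, limma adjusted p = 2.41e-05). Of 9 endothelial markers 0 were called. The part of these cells in Aqp1 was not tested.

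**Figure D2:**
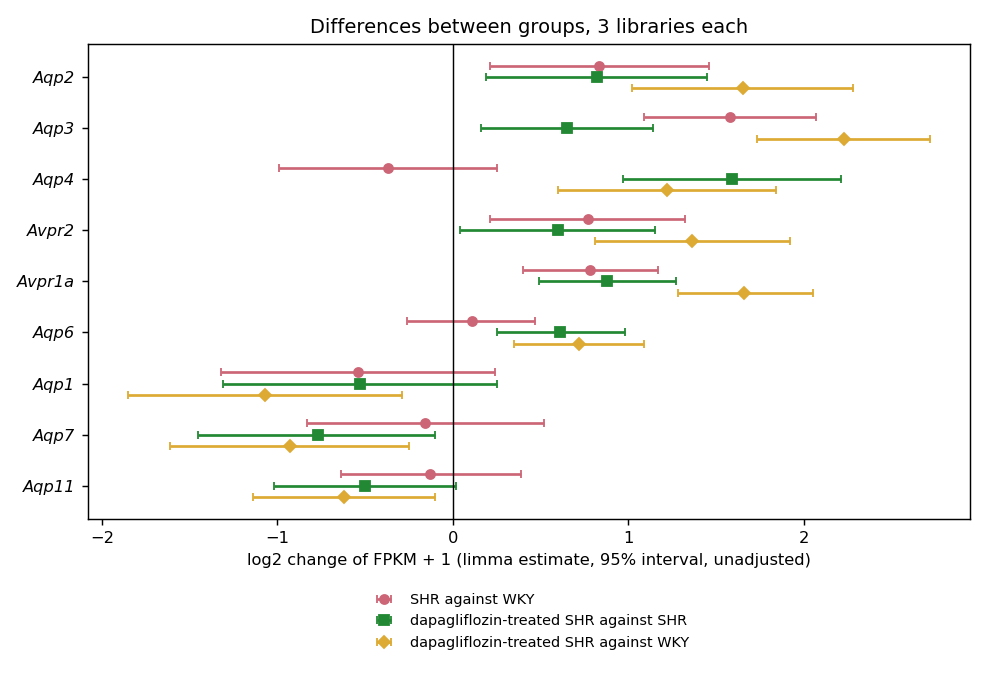
Log2 change of FPKM + 1 for each member (horizontal axis) in the 3 comparisons, with limma estimates as points and unadjusted 95% intervals as bars. Aqp3 has the highest estimate against WKY in both SHR groups, 1.58 and 2.23, and Aqp4 changes sign between the strain comparison (-0.37) and the treatment comparison (1.59).

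The comparison of treated with untreated SHR addresses the drug within the hypertensive strain. Aqp2, Aqp3, Aqp4, Aqp6, Avpr2 and Avpr1a had a higher level in each treated library than in any untreated SHR library, and the proximal channels had lower means with overlap, but no member passed. Limma called 0 of 9 members and 0% of all genes, and the smallest adjusted p of any gene was 0.117. At an unadjusted p under 0.05 there were 7 of 9 members and 1997 genes, 15.2% of those tested. Libraries did not overlap for 6 members, all higher in treated SHR (12.6% of all genes), and for 0 members in the lower direction (6.44% of all genes). The median log2 change was 0.61 over the members and 0.04 over all genes. The untreated SHR libraries enter both this comparison and the one with WKY, so the changes of a member in the 2 are not independent.

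Aqp4 measured 25.2, 41.2 and 47.8 FPKM in treated libraries 1 to 3 against 9.51, 11.3 and 14.4 in untreated SHR. The lowest treated library was above the highest untreated SHR library and also above the highest WKY library, at 20.7. The log2 change was 1.59 (95% interval 0.97 to 2.21, adjusted p = 0.281). Aqp2 measured 626, 877 and 1168 FPKM in treated SHR against 448 to 519 (log2 change 0.82, adjusted p = 0.285). Aqp3 measured 159, 219.8 and 276 FPKM in treated SHR against 135 to 137 (log2 change 0.65, adjusted p = 0.285). The treated libraries of these 3 channels spread more than the untreated ones, and library 1 was lowest in all 3 channels. Avpr2 measured 38.9, 45.6 and 73.05 FPKM against 29.5 to 37.0 (log2 change 0.60, adjusted p = 0.312), and its library 1 lay just above the highest untreated library. Avpr1a measured 10.35, 15.7 and 15.8 FPKM against 6.18 to 8.50 (log2 change 0.88, adjusted p = 0.281). Aqp6 measured 189, 229 and 295 FPKM against 143 to 164 (log2 change 0.61, adjusted p = 0.281).

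With the principal cell covariate 0 members and 0% of all genes were called in this comparison. The log2 changes were then 0.81 for Aqp4 (adjusted p = 0.965), 0.49 for Avpr1a (0.965), 0.24 for Aqp6 (0.965), 0.09 for Aqp3 (0.997), 0.08 for Aqp2 (0.997) and -0.13 for Avpr2 (0.976). Aqp2, Aqp3, Aqp4 and Avpr2 were also set against the principal cell markers library by library. The log2 difference of Aqp3 from the marker mean was 1.22, 1.48 and 1.33 in treated SHR, against 1.39 ± 0.29 in untreated SHR, and the groups overlapped. Aqp2 (3.36 ± 0.15 against 3.23 ± 0.24) and Avpr2 (-0.71 ± 0.12 against -0.62 ± 0.16) overlapped as well. For Aqp4 the difference was -1.39, -0.91 and -1.18 in treated SHR, higher by 0.90 than in untreated SHR and without overlap, and it overlapped the WKY values. The log2 ratio of Aqp4 to Aqp3 was -2.61, -2.39 and -2.50 in treated SHR, higher by 0.94 than in untreated SHR and lower than in WKY (-1.01), without overlap in either case. These differences without overlap had the smallest exact permutation p that the design allows, 0.1 two-sided, and an adjusted p of 0.218. Of the 4 members set against these markers, Aqp4 was thus the member whose level relative to other principal cell transcripts was low in untreated SHR and near that of WKY in treated SHR.

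**Figure D3:**
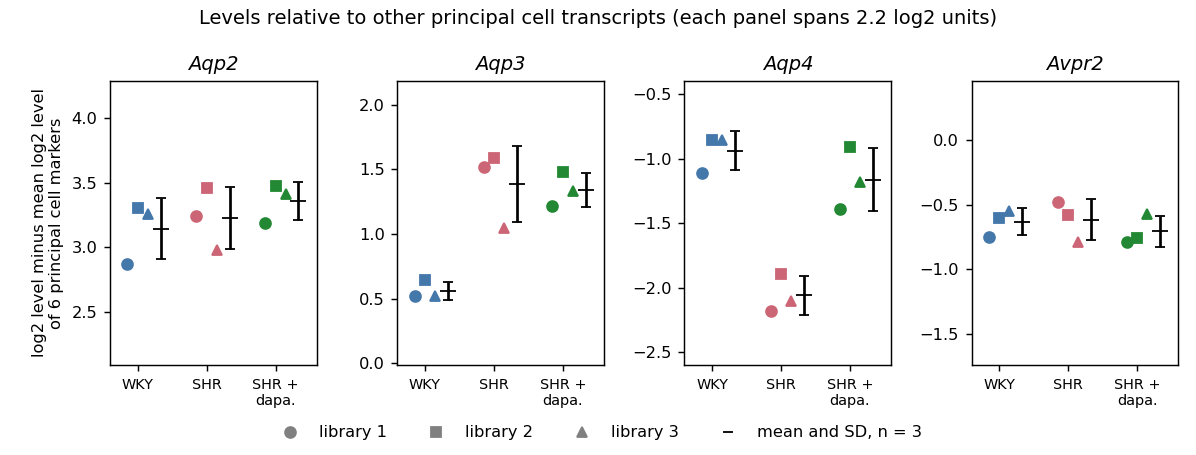
Log2 level of 4 members minus the mean log2 level of 6 principal cell markers (vertical axes, each spanning the same length) by group; symbols are libraries and bars the mean and SD of 3. Aqp3 is higher in both SHR groups than in WKY, Aqp4 is low in untreated SHR alone, and Aqp2 and Avpr2 overlap in all groups.

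The proximal channels were below the untreated range in treated libraries 2 and 3. Aqp1 measured 544, 305 and 192 FPKM in treated libraries 1 to 3 against 429 to 485 in untreated SHR (log2 change -0.53, adjusted p = 0.461). Aqp7 measured 71.1, 35.3 and 26.4 FPKM against 60.0 to 79.8 (log2 change -0.77, adjusted p = 0.296). Aqp11 measured 28.4, 18.8 and 12.65 FPKM against 25.9 to 29.5 (log2 change -0.50, adjusted p = 0.34). Treated library 1 lay within or above the untreated range for all 3. The late proximal marker sum divided the treated libraries in the same way, at 2608 FPKM in library 1 and 622 and 718 in libraries 2 and 3. Slc3a1 (1724, 468 and 501 FPKM) and Slc7a13 (839, 110 and 196) made up most of it. Slc22a7 and Slc22a13 were also highest in library 1. Slc7a9 (31.6, 35.9 and 15.75 FPKM) and Slc5a8 (7.71, 7.83 and 3.61) were highest in library 2. So was the early proximal marker sum, at 1720, 1961 and 1111 FPKM. Without treated library 1 limma called 6 members, where 6.32% of all genes were called. Aqp4 (log2 change 1.85, adjusted p = 0.0219), Avpr1a (1.07, 0.0219), Aqp6 (0.77, 0.0337) and Aqp3 (0.86, 0.043) were then higher, and Aqp7 (-1.17, 0.0219) and Aqp11 (-0.78, 0.0343) lower. That fit rests on 2 treated libraries, both with a low late proximal marker sum, and the part of the tissue sampled was not tested.

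Treated SHR and WKY differ in strain and in treatment, and neither can be told apart from the other here. Aqp2, Aqp3, Aqp4, Aqp6 and both receptor genes rose, and 0 members fell. The 6 called members compare with 22.9% of all genes called. Libraries did not overlap for the same 6 members in the higher direction (28.2% of all genes) and for Aqp7 in the lower direction (10.4% of all genes). The median log2 change was 1.22 over the members and 0.11 over all genes. Aqp3 had a log2 change of 2.23 (SE 0.22, adjusted p = 0.000813), Avpr1a 1.66 (adjusted p = 0.001), Aqp2 1.65 (adjusted p = 0.00866), Avpr2 1.36 (adjusted p = 0.0106), Aqp4 1.22 (adjusted p = 0.019) and Aqp6 0.72 (adjusted p = 0.019). The calls of Aqp3, Avpr1a, Aqp2 and Avpr2 held whichever library was left out.

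The call of Aqp4 was lost without WKY library 1 (adjusted p = 0.0659) or 3 (0.0673) and without treated library 2 (0.0622) or 3 (0.0674). That of Aqp6 was lost without WKY library 1 (0.069) or 3 (0.0693) and without treated library 2 (0.0542). In a fit of only these 6 libraries neither passed (adjusted p = 0.0512 for Aqp4 and 0.0565 for Aqp6). The proximal channels did not pass, at log2 changes of -1.07 for Aqp1 (adjusted p = 0.0527), -0.93 for Aqp7 (0.0532) and -0.62 for Aqp11 (0.0771). Without treated library 1 all 3 were called lower (adjusted p = 0.00506, 0.00151 and 0.00421), and Aqp1 also without WKY library 2 (0.0372). Of all 13127 genes, 3408 were called higher and 1383 lower in the first of these fits, and 2418 and 870 in the second. With the principal cell covariate 0 members were called, where 0.152% of all genes were, and the log2 changes were 1.06 for Aqp3 (adjusted p = 0.761), 0.85 for Avpr1a (0.838), 0.11 for Aqp2 (0.982), -0.15 for Avpr2 (0.963) and -0.40 for Aqp4 (0.942).

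In treated SHR and in WKY, but not in untreated SHR, 1 library was highest for all collecting duct members and Aqp6. In treated SHR, library 3 was highest and library 1 lowest for Aqp2, Aqp3, Aqp4, Aqp6, Avpr2 and Avpr1a, and library 1 was highest and library 3 lowest for Aqp1, Aqp7 and Aqp11. The highest treated library exceeded the lowest 1.87 times for Aqp2, 1.73 times for Aqp3, 2.84 times for Aqp1 and 2.69 times for Aqp7. In WKY, library 2 was highest for Aqp2, Aqp3, Aqp4, Aqp6, Avpr2 and Avpr1a, and it was lowest for Aqp1. The principal cell markers followed, with 796 FPKM in WKY library 2 against 432 and 468 in the others, and 1222, 1658 and 2271 FPKM in treated libraries 1 to 3. In untreated SHR no library was highest throughout: library 3 was highest for Aqp2, Aqp4, Avpr2 and Avpr1a and library 2 for Aqp3 and Aqp6. The highest untreated library exceeded the lowest by 1.01 times for Aqp3, 1.16 times for Aqp2, 1.38 times for Avpr1a and 1.51 times for Aqp4. Urothelial markers, which would accompany renal pelvis, summed to no more than 1.24 FPKM in any library. The 4 adipocyte markers summed to 39.1 to 61.7 FPKM in WKY, 46.5 to 64.5 in SHR and 27.2 to 82.3 in treated SHR, and 0 of the 2 tested were called. Among them Adipoq measured 14.56 to 18.92 FPKM in treated SHR, above its 10.73 to 11.68 in untreated SHR, and Cidec 11.89 to 67.47 over all libraries, while Plin1 and Lep were at most 0.73 and 0.1. The part of fat in the values of Aqp7, which adipocytes also express, was not tested.

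**Figure D4:**
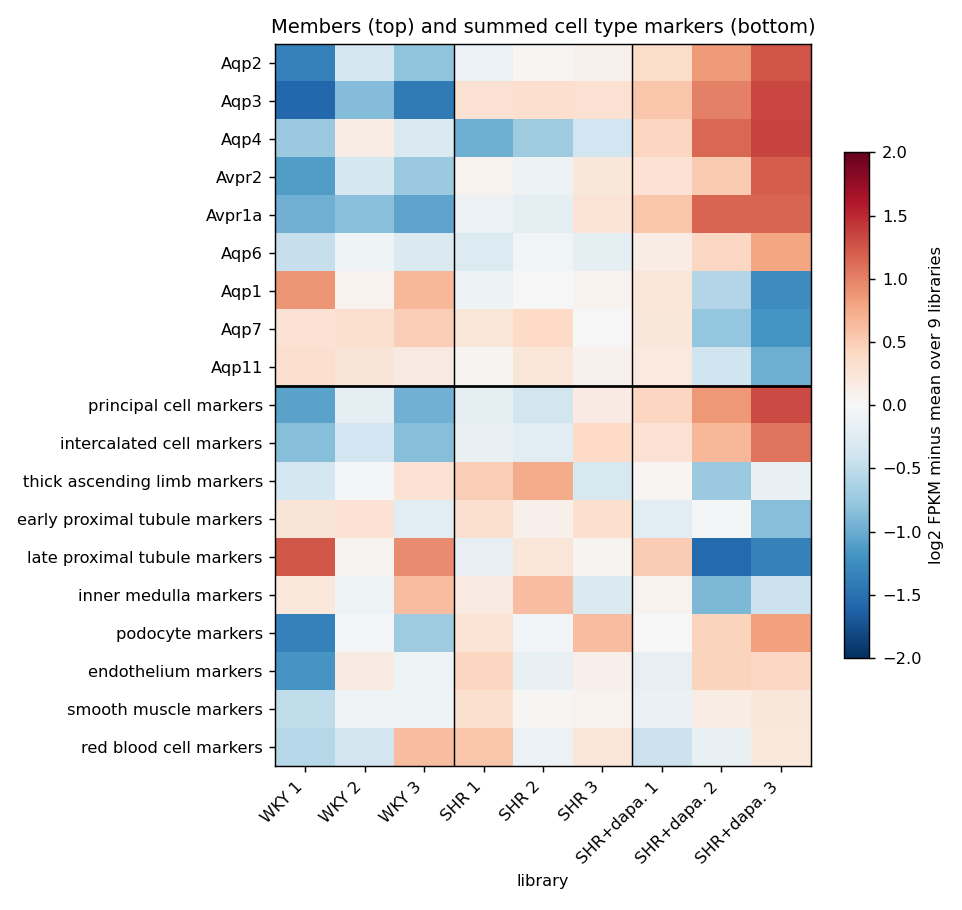
Log2 FPKM minus its mean over the 9 libraries, as color, for the 9 members (upper rows) and for summed markers of 10 cell types (lower rows), with 1 column per library and lines between groups. Principal and intercalated cell markers are highest in treated library 3, as are 6 members (Avpr1a level with library 2), and late proximal markers are lowest in treated libraries 2 and 3, as are Aqp1, Aqp7 and Aqp11.

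The genes whose levels followed each member most closely over the 9 libraries were found by Pearson's r on log2(FPKM + 1) among 9403 genes; the libraries share group, depth and tissue composition, so r is a description. For Aqp2 they were Sfxn3 (r = 0.994), Dnase1 (0.994) and Fam81a (0.993), and Dnase1 went from 442 ± 128 FPKM in WKY to 876 ± 37.5 in SHR and 1789 ± 661 in treated SHR. Those closest to Aqp3 were Uap1 (0.992), Sv2a (0.992) and Fam185a (0.991), and Sv2a measured 1.65 ± 0.292, 8.00 ± 0.459 and 12.8 ± 3.29 FPKM in the 3 groups. Aqp4 had Ly6i (0.977), Rce1 (0.97) and Tmem164 (0.97). Avpr2 had Whrn (0.999), Ampd3 (0.993) and Plekhd1 (0.993), and Avpr1a had Ykt6 (0.987) and Zc3hav1 (0.985). For Aqp6 the closest were Rtn3 (0.988), Fzd6 (0.987) and Igfbp1 (0.986). The proximal channels were closest to Aldh8a1 (0.995), Aldh6a1 (0.992) and Cdh2 (0.992) for Aqp1, Iah1 (0.996), Lap3 (0.987) and Mettl7b (0.986) for Aqp7, and Hoga1 (0.981), Akr7a2 (0.978) and Bhmt2 (0.978) for Aqp11. No gene appeared under more than 1 member.

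The remaining aquaporins were scarce. Mip, the lens channel also named Aqp0, measured 7.07 ± 1.11, 7.49 ± 1.21 and 6.41 ± 0.82 FPKM in WKY, SHR and treated SHR, and Aqp5 1.11 ± 0.63, 1.18 ± 0.635 and 2.04 ± 0.81. Of the 2, 0 were called in any comparison. Aqp8, Aqp9 and Aqp12a did not reach the level needed for a test, with Aqp12a listed at 0 in 8 libraries. Lnpep, the aminopeptidase that degrades vasopressin and oxytocin, measured 1.16 ± 1.13, 1.28 ± 0.949 and 2.07 ± 1.79 FPKM and was not called.

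The genes around these members were counted by list, and each count reads against the share of all genes called, 2.96% in SHR against WKY, 0% in treated against untreated SHR and 22.9% in treated SHR against WKY. The corresponding medians of the log2 change over all genes were 0.07, 0.04 and 0.11. No list was tested against other genes. Of 22 tested genes of the cyclic AMP cascade downstream of Avpr2, 1 rose in SHR against WKY, 0 were called in treated against untreated SHR, and 10 rose and 0 fell in treated SHR against WKY; their median log2 changes were 0.19, 0.12 and 0.33. Prkar2b, a regulatory subunit of protein kinase A, rose to 3.64 ± 0.159 FPKM in SHR from 0.773 ± 0.241 in WKY (log2 change 1.40, adjusted p = 0.00888). That call held in every fit that left out a library and with the principal cell covariate (adjusted p = 0.0478), and it was lost with the proximal covariate (adjusted p = 0.0729). In WKY libraries 1 to 3 Prkar2b measured 0.8, 0.52 and 1.0 FPKM, so it was kept for testing through the SHR groups. In treated SHR against WKY, the adenylyl cyclase gene Adcy6 rose to 49.3 ± 11.3 from 27.3 ± 4.86 FPKM. Lrba, an anchoring protein for protein kinase A, rose to 18.7 ± 2.28 from 12.8 ± 0.434, Arrb1, a beta-arrestin of receptor internalization, to 17 ± 1.28 from 12.2 ± 1.22, and Prkar1a, another regulatory subunit, to 108 ± 15.7 from 73.2 ± 8.77. In treated against untreated SHR the smallest p of the list belonged to Lrba (adjusted p = 0.281) and Pde4c, a phosphodiesterase that breaks down cyclic AMP (adjusted p = 0.311).

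Of 14 genes of the Gq and calcium cascade of Avpr1a, 0 were called in SHR against WKY or in treated against untreated SHR, and 5 rose and 1 fell in treated SHR against WKY, at median log2 changes of 0.20, 0.04 and 0.37. The inositol trisphosphate receptors Itpr2 (17.3 ± 4.64 against 6.04 ± 1.46 FPKM) and Itpr3 (17.6 ± 4.61 against 6.93 ± 1.6) rose in that last comparison, as did the G protein subunit Gna11 (33.5 ± 3.28 against 20.5 ± 1.28) and the protein kinase C Prkcd (37.9 ± 3.91 against 27 ± 2.86). Of 34 genes of Aqp2 trafficking and degradation, 0, 0 and 8 were called in the 3 comparisons, the last 6 higher and 2 lower, at a median log2 change of 0.09 against 0.11 for all genes; 8 of 34 is near the 22.9% of all genes called, and is no result about the list. Nedd4l, a ubiquitin ligase, rose to 40.8 ± 4.22 from 26.3 ± 0.675 FPKM, Cav1, the caveolar coat protein, to 52.2 ± 16.8 from 19.5 ± 3.46, Mal, an apical sorting protein, to 266 ± 75.1 from 135 ± 28.6, and Anxa4, a membrane-binding annexin, to 196 ± 35.7 from 124 ± 19.1.

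Of 16 transcription regulators tied to Aqp2, 0 were called in SHR against WKY or in treated against untreated SHR, and 8 rose in treated SHR against WKY, at median log2 changes of 0.40, 0.03 and 0.53. The mineralocorticoid receptor gene Nr3c2 rose to 18.5 ± 3.95 from 8.46 ± 1.07 FPKM, the ETS factor Elf3 to 35 ± 7.9 from 18.6 ± 1.37, and the GATA factors Gata3 to 58.5 ± 17.2 from 22.1 ± 4.15 and Gata2 to 20.7 ± 3.26 from 9.12 ± 1.43. Gata3 and Elf5 are also among the principal cell markers. Elf3 (adjusted p = 0.0604) and Gata2 (adjusted p = 0.061) had the smallest p of this list in SHR against WKY and did not pass.

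Of 11 receptors and ligands that oppose vasopressin, 1 rose in SHR against WKY, 0 were called in treated against untreated SHR, and 4 rose in treated SHR against WKY, at median log2 changes of 0.35, 0.15 and 0.87. The bradykinin receptor Bdkrb2 was called in both comparisons with WKY, at log2 changes of 1.13 (adjusted p = 0.00373) and 1.51 (adjusted p = 0.000644). In WKY it measured 0.35 to 0.63 FPKM, under the filter of 1 FPKM, so it was tested only through its level in SHR and treated SHR. Its call in SHR against WKY was lost with the principal cell covariate (adjusted p = 0.14) and with the proximal covariate (0.0729). In treated SHR against WKY the prostaglandin E2 receptor Ptger1 rose to 17.8 ± 3.58 from 8.98 ± 1.56 FPKM, the endothelin receptor Ednrb to 16 ± 4.78 from 6.94 ± 2.43, and the natriuretic peptide receptor Npr1 to 8.7 ± 2.42 from 3.89 ± 1.48. Of 14 tested genes of urine concentration, 0, 0 and 9 were called, the last 8 higher and 1 lower, at median log2 changes of 0.44, 0.36 and 0.79. By log2 change, 10 were higher and 4 lower in treated SHR against WKY. Of these 4, Slc6a6 was called (log2 change -0.92, adjusted p = 0.0126). Slc12a1 (-0.77, 0.123), Slc6a12 (-0.63, 0.151) and Umod (-0.38, 0.439) did not pass. The urea transporters Slc14a1 and Slc14a2 were too low to be tested. The epithelial sodium channel subunits Scnn1a (169 ± 66 against 55.6 ± 21.4 FPKM), Scnn1b (215 ± 59.8 against 66.2 ± 20.3) and Scnn1g (104 ± 32.5 against 30.6 ± 9.44) rose in treated SHR against WKY. Scnn1b and Scnn1g are also principal cell markers.

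In treated SHR against WKY, without WKY library 3 the calls of Adcy6, Arrb1, Prkar1a, Prkcd, Mal, Anxa4, Ptger1, Ednrb, Npr1 and Scnn1a were lost (adjusted p up to 0.106 over the fits that left out a library). All of these but Arrb1 and Scnn1a were also lost without WKY library 1. The calls of Adcy6, Prkar1a, Anxa4, Ptger1, Ednrb and Npr1 were lost without treated library 2, and those of Arrb1, Prkar1a, Prkcd, Anxa4, Ptger1, Ednrb and Npr1 without treated library 3. Among fits that left out a library, the number called in the cyclic AMP list ranged from 1 to 12 and in the trafficking list from 2 to 12. Over all genes these fits gave from 419 higher and 174 lower to 3408 higher and 1383 lower. With the principal cell covariate 0 genes of any of these lists were called in treated SHR against WKY, where 0.152% of all genes were. The marker lists of principal and intercalated cells had risen in that comparison without the covariate. Their part in these lists was not tested.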

How the data were processed

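Kidney RNA of 9 libraries was sequenced as single-end 50-base reads, per the labels' protocols. The submitters' processing notes name HISAT2 2.0.4, Bowtie2 2.2.5 and the build Rnor_6.0 without their roles. The strand setting, the annotation and the program that computed expression were not given in the sources used here. The deposited values are FPKM computed by the authors, per the file headers, 1 column per library with 2 decimals. Because FPKM is scaled to each library's total, a rise of abundant transcripts lowers all others. Read totals are unknown, so no counting interval is given.

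Genes reaching 1 FPKM in 3 or more libraries were kept (13127). Values were analysed as log2(FPKM + 1), so changes of weakly expressed genes are understated. Limma 3.58.1 in R 4.3.3 fitted the means of the 3 groups to all 9 libraries with an intensity trend, two-sided, with Benjamini-Hochberg adjustment over the genes kept. The fit was tested on simulated data. Ratios and levels relative to markers were tested with exact permutation tests (Python 3.11.15, scipy 1.17.1), 24 in all, adjusted together. Alternatives were pseudocounts of 0.1 and 0.5, no filter, median-of-ratios and quantile scaling, no trend, fits of only the groups compared, a replicate block, principal and proximal marker covariates, and leaving out each library.

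The members and the gene and marker lists were chosen with earlier results of these data known. All 9 members are named in every comparison. From each list, up to 4 called genes by smallest p were named, or up to 2 that did not pass, and for likeness the 3 genes with the highest r among genes with a mean of at least 5 FPKM in a group. Some genes that this rule takes are not reported here, and list counts include them. Member gene IDs all matched the RefSeq gene table of GRCr8, which was used for neighbours and promoter windows only, since the authors' build differs. Avp, Avpr1b, Oxt and Aqp10 were not analysed here.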

Additional observations from a re-analysis of the deposited data

How the results depend on the processing

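Without covariates, no member changed direction in any comparison under the pseudocounts, filter, scalings, trend, 2-group fits or omission of a library. The number of members called in SHR against WKY was 1 with no filter, with no trend and with the replicate block, against 2, and ranged from 1 to 2 when a library was left out. In treated against untreated SHR it ranged from 0 to 6, reaching 6 only without treated library 1, where 6.32% of all genes were called. In treated SHR against WKY it ranged from 4 to 9, reaching 9 without treated library 1. With either covariate it was 0 in SHR against WKY and 0 in treated SHR against WKY. The calls over all genes moved as well. In treated SHR against WKY they ran from 419 higher and 174 lower without WKY library 3 to 3408 and 1383 without treated library 1. In SHR against WKY they ran from 102 and 65 to 412 and 214 in the same fits. Both covariates move with the groups, and the 2 cannot be told apart in these libraries.

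Whether replicate numbers pair the libraries is unknown, since the labels do not tie them to a litter or batch. The correlation of same-numbered deviations from group means ran from -0.328 to 0.456. With 3 libraries in a group it cannot decide this. With the replicate block 1, 0 and 6 members were called in the 3 comparisons, and Avpr1a in SHR against WKY lost its call (adjusted p = 0.0676). Over all genes that block gave 174 higher and 108 lower, 0 and 1, and 1961 and 739, in the same order. Median-of-ratios and quantile scaling moved the median log2 change of all genes in treated SHR against WKY from 0.11 to -0.01 and 0.01. The share of called genes that were higher went from 73.5% to 54.2% and 59.9% there, and from 62.1% to 51.6% and 50.7% in SHR against WKY.

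With the principal cell covariate, log2 changes that turned direction in SHR against WKY were Aqp1 0.37, Aqp6 -0.30, Aqp7 0.57, Aqp11 0.41 and Avpr2 -0.02. In treated against untreated SHR they were Aqp1 0.31 and Avpr2 -0.13, and in treated SHR against WKY Aqp1 0.68, Aqp4 -0.40, Aqp6 -0.06, Aqp7 0.46, Aqp11 0.40 and Avpr2 -0.15. With the proximal covariate they were Aqp1 0.05, Aqp6 -0.20, Aqp7 0.35 and Aqp11 0.28 in SHR against WKY. In treated against untreated SHR they were Aqp1 0.37, Aqp11 0.12 and Avpr2 -0.26, while Aqp2 and Aqp7 came to 0 when rounded. In treated SHR against WKY they were Aqp1 0.42, Aqp4 -0.20, Aqp6 -0.06, Aqp7 0.35, Aqp11 0.40 and Avpr2 -0.05. None of these passed, and the cause was not tested.

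Differences near 0 also turned. In SHR against WKY, Avpr2 minus the principal cell markers was -0.02 with a pseudocount of 0.1 and -0.05 to 0.10 when a library was left out. Avpr1a to Avpr2 was -0.02 with quantile normalization and -0.12 to 0.19. Aqp2 to Avpr2 ranged from -0.03 to 0.13 and Aqp2 minus the markers from -0.05 to 0.21. In treated against untreated SHR, Aqp3 minus the markers ranged from -0.21 to 0.06.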
